A study of Mus musculus with 9 samples.

Results

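Matrix metalloproteinases (MMPs) and their tissue inhibitors (TIMPs) were followed as 9 genes in LPS-treated mouse bone marrow-derived macrophages. The set was given by name: Mmp8, Mmp9, Mmp12, Mmp13, Mmp14, Mmp19, Timp1, Timp2 and Timp3. All 9 had a row among the 22165 genes counted, and all 9 passed the filter on low counts that left 10781 genes. The macrophages were grown in culture from bone marrow of C57BL/6N mice aged 6 to 16 weeks. Lipopolysaccharide (LPS, a bacterial cell-wall component that activates macrophages) was given to the cells of every library at 100 ng/mL for 24 h, so no unstimulated state enters the comparisons. The 9 libraries carried 3 labels with 3 libraries each: wild type (WT), Irg1-/- (KO), and Irg1-/- with 1 mM itaconate added 4 h after LPS (itaconate). Irg1 (Acod1) is the gene of the mitochondrial enzyme that decarboxylates cis-aconitate to itaconate. The labels give neither the deleted part of the gene nor whether replicates stem from different animals or cultures, so the p-values below cover a spread between libraries that may be technical.

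Acod1 reads conflicted with 4 of the 9 labels. In the order of replicates 1 to 3 there were 94, 117 and 31169 Acod1 reads under the WT label, 154, 170 and 44920 under the KO label, and 94, 8 and 60716 under the itaconate label. Groups below are as labelled. Several comparisons are also given without the 4 libraries in conflict, which are those labelled WT replicates 1 and 2, KO replicate 3 and itaconate replicate 3. Gene reads ranged from 7361671 to 20430359 per library, so 3 reads are worth 0.147 to 0.408 CPM (counts scaled to a common library total). The library labelled itaconate replicate 3 stood apart: 33.7% of its reads lay outside annotated genes, where the median over libraries was 25.6%. The number before the barcode in the sample descriptions, read here as the sequencing pool, was 1 for all libraries labelled WT and for KO replicates 1 and 2. It was 2 for KO replicate 3 and itaconate replicate 1, 3 for itaconate replicate 2 and 4 for itaconate replicate 3, so pool and label are partly confounded.

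MMPs are zinc-dependent endopeptidases that cut collagens, elastin, fibronectin and many non-matrix proteins such as cytokines and chemokines. Most are secreted as latent proenzymes, so a transcript level is not an activity, and TIMPs block the active enzymes by inserting into the catalytic cleft. Macrophages are a main source of elastase and gelatinase in inflamed tissue, and several of these genes are known to respond to AP-1, ETS-family and NF-κB factors. None of the 9 transcripts passed the edgeR test (adjusted p under 0.05) between labels when all libraries were used. Timp1 was highest in 2 of the 3 libraries labelled itaconate, and Mmp19 was lower in all 3 labelled WT than elsewhere. Of all genes tested, 10.6% and 14.6% did not overlap in KO and itaconate against WT. Mmp12 and Mmp14 ranged 3.26-fold and 2.71-fold across libraries with overlap of every label. The 9 genes together took 0.0965% to 0.167% of the gene reads of a library.

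Some of the enzymes are neighbours. Mmp13 (chromosome 9, 7272514 to 7283331, plus strand, GRCm38), Mmp12 (7344381 to 7369499) and Mmp8 (7558456 to 7568485) belong to a cluster of 10 MMP genes that spans 427.1 kb. The other genes map apart: Mmp9 on chromosome 2 (164940780 to 164955850), Mmp14 on chromosome 14 (54431612 to 54445364), Mmp19 on chromosome 10 (128790910 to 128800824), Timp1 on chromosome X (20870166 to 20874735), Timp2 on the minus strand of chromosome 11 (118301069 to 118355740) and Timp3 on chromosome 10 (86300372 to 86349506). Timp1 and Timp3 lie wholly within Syn1 and Syn3, which are transcribed from the opposite strand and held 19 to 150 and 0 reads per library. The libraries are strand-specific per the labels, but the strand setting of the counting is not given in the sources used here. Mmp19 lies wholly within the antisense gene Gm47093 (9915 bases), whose identifier had no row among the genes counted. Mmp19 also overlaps Tmem198b on the opposite strand over 789 bases (26 to 127 reads). Timp2 shares 10141 bases with Cep295nl on the same strand (0 to 8 reads), and Mmp12 overlaps Mmp1b, which held 0 reads, over 1261 bases.

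The sequences before the start sites of the 3 neighbours and of Timp1, the gene with the largest difference between labels, are shown. A link between these sequences and the levels was not tested. RefSeq start-site windows (GRCm38.p6) matched 7 of the 9 genes. The 250 bases before each start are printed 5′ to 3′, and capitals mark matches to 3 motifs searched on both strands. The first is the AP-1 motif TGANTCA. The second is the PEA3 motif of ETS-family factors, AGGAAG. The third is the TATA motif, written TATAAA. None of these matches overlap in the 4 windows.
Mmp13, chr9:7272264-7272513, plus strand: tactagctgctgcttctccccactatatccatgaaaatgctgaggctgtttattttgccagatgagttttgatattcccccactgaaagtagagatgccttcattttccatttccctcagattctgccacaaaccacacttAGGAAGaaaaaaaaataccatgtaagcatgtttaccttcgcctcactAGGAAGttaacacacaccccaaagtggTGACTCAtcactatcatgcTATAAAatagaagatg
Mmp12, chr9:7344147-7344396, plus strand: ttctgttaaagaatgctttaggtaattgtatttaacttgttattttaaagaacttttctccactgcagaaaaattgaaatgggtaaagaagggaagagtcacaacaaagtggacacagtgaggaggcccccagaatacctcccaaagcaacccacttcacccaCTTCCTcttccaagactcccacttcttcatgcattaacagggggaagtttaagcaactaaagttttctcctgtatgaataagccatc
Mmp8, chr9:7558179-7558428, plus strand: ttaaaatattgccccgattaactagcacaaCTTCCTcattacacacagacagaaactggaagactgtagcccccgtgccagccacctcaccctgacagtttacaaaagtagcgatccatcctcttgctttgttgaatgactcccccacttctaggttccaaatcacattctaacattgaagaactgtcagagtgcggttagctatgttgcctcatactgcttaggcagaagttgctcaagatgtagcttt
Timp1, chrX:20869916-20870165, plus strand: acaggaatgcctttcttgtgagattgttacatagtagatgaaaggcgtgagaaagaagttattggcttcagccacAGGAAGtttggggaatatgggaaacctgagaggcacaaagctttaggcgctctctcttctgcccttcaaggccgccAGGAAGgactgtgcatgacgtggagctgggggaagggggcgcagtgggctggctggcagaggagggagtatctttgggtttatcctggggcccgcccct

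Mmp13 had an AP-1 motif whose first base lay at -35 from the start site, PEA3 motifs at -109 and -62 and a TATA motif at -16. Of the 7 windows, only that of Mmp13 had an AP-1 motif, which 6.75% of 32851 windows of this length hold, or a TATA motif, which 12.4% hold. Mmp12 and Mmp8 each had 1 PEA3 motif (29.5% of all windows hold it) and 2 matches to the C/EBP motif TTNNGNAA (36.8%). Timp1 had PEA3 motifs at -175 and -99 and a C/EBP match at -168. The windows of Mmp14 and Timp3 also held 1 PEA3 motif each. The GC content was 40.4%, 40.0% and 44.8% for Mmp13, Mmp12 and Mmp8, 55.2% for Mmp14 and 54.4% for Timp1, with a median of 52.4% over all windows. The letters are a description of these windows only.

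**Figure D1:**
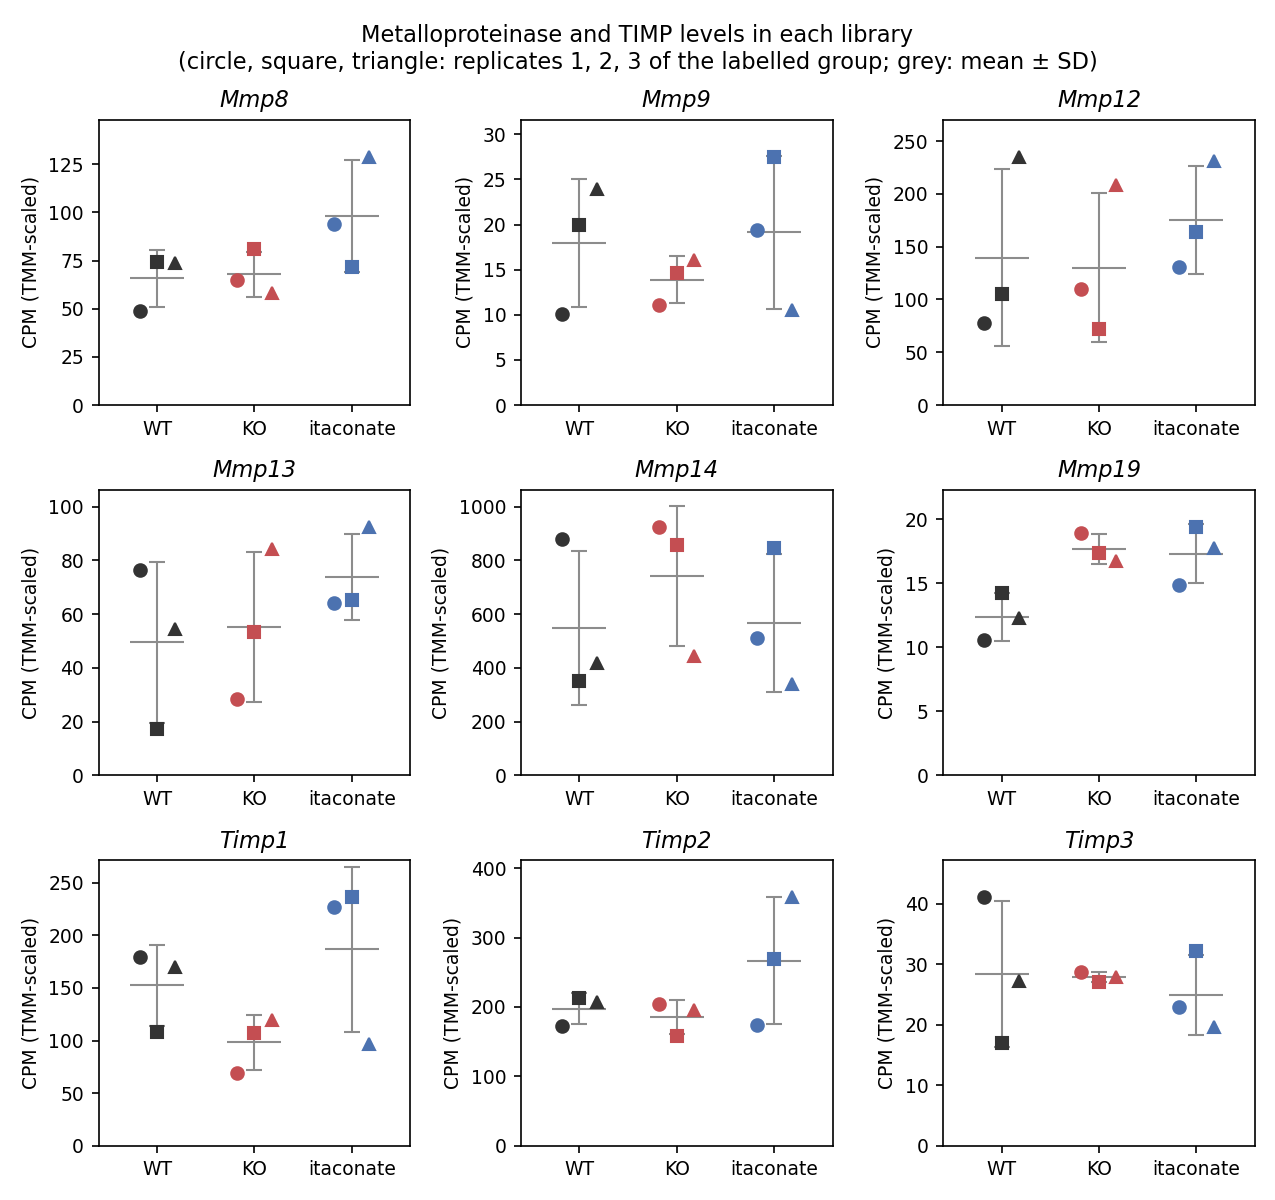
Level of each gene in the 9 libraries, in CPM scaled by the trimmed mean of M-values (TMM), on linear axes that start at 0 and differ between panels. Circles, squares and triangles are replicates 1, 2 and 3 of a label, and grey bars are the mean ± SD of 3 libraries. The points of the 3 labels overlap in every panel except Mmp19, where the libraries labelled WT (10.6 to 14.3 CPM) lie below all others.

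Mmp8 encodes neutrophil collagenase, which cleaves fibrillar collagens. It was at 48.9, 74.4 and 73.9 CPM under the WT label, 64.8, 80.9 and 58.1 under the KO label, and 94.1, 71.4 and 128.9 under the itaconate label. The highest value and the second highest were both in libraries labelled itaconate, but the lowest of that label lay within the range of the other labels. The means were 65.7 ± 14.6, 67.9 ± 11.7 and 98.2 ± 28.9 CPM (SD, n = 3 each). Itaconate against KO gave a log2 fold change of 0.53 ± 0.30 (SE, edgeR adjusted p = 0.653) and itaconate against WT 0.58 ± 0.30 (edgeR adjusted p = 0.586). These were 0.28 and 0.34 once the library with 128.9 CPM, labelled itaconate replicate 3, was left out, and both were 0.16 without the 4 libraries in conflict with their labels. KO against WT was 0.05 ± 0.30.

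Mmp8 is best known from neutrophil granules, so neutrophil markers were read beside it. The summed level of 10 such markers was 254 to 258 CPM under the WT label, 167 to 221 under the KO label and 76.3 to 224 under the itaconate label. The lowest sum was in the library labelled itaconate replicate 3, the one with the most Mmp8. Most of the sum was S100a8 and S100a9, calcium-binding proteins that LPS-treated macrophages make as well. Of the 10 markers 3 had at least 10 reads in every library, S100a8, S100a9 and the granule gene Ngp (11 to 48 reads). The granule genes Ltf and Camp held 6 to 39 and 0 to 16 reads and the receptor Cxcr2 0 to 51, while Ly6g, Elane and Mpo held 0 to 3, 0 to 11 and 0 to 3. The part of neutrophil transcripts in the Mmp8 values was not tested. Macrophage markers were present in every library, with sums over 9 genes of 9022 to 11590, 8190 to 8819 and 5384 to 8549 CPM for the 3 labels. In bulk samples fewer cells of a type and less RNA per cell cannot be told apart.

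Mmp13 encodes collagenase-3, a main interstitial collagenase of rodents. Its values were 76.5, 17.3 and 54.5 CPM under the WT label, 28.5, 53.3 and 84.1 under the KO label and 64.2, 65.2 and 92.3 under the itaconate label. The 3 libraries labelled itaconate were close together, while the other labels each ran from low to high. The range over the 9 libraries was 5.33-fold, the widest among the 9 genes, and its SD on the log2 scale exceeded that of 85.6% of the genes tested. The means were 49.5 ± 29.9, 55.3 ± 27.9 and 73.9 ± 16.0 CPM (SD, n = 3 each). KO against WT gave a log2 fold change of 0.16 ± 0.46, itaconate against KO 0.42 ± 0.46 and itaconate against WT 0.58 ± 0.47 (SE, edgeR adjusted p = 0.995, 0.835 and 0.715). The first of these was -0.25 without the library labelled KO replicate 3, the second 0.85 without it and 0.10 without KO replicate 1. The third was 0.17 without the library labelled WT replicate 2 and 1.04 without WT replicate 1.

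Mmp12 encodes macrophage elastase, which degrades elastin and other matrix proteins and is a product of macrophages. It was at 78.2, 105.0 and 235.1 CPM under the WT label, 109.7, 72.1 and 208.3 under the KO label and 131.2, 164.1 and 231.2 under the itaconate label. The 3 highest values came 1 from each label, from the libraries labelled replicate 3 of WT, KO and itaconate, and the other 6 were at 72.1 to 164.1 CPM. Those are also the 3 libraries with 31169, 44920 and 60716 Acod1 reads, whereas the other 6 held 8 to 170; the part of this difference in the Mmp12 values was not tested. The means of 139.4 ± 84.0, 130.0 ± 70.3 and 175.5 ± 51.0 CPM (SD, n = 3 each) therefore had wide errors. KO against WT differed by -0.10 ± 0.44 on the log2 scale, itaconate against KO by 0.43 ± 0.44 and itaconate against WT by 0.33 ± 0.44 (SE, edgeR adjusted p = 0.998, 0.820 and 0.837). Itaconate against KO was 0.14 without the library labelled KO replicate 2, 0.94 without KO replicate 3 and -0.67 in the pool-term fit (pool added as a term). Itaconate against WT was 0.04 without the library labelled WT replicate 1, 0.93 without WT replicate 3 and -1.28 in the pool-term fit. In the pool-term fit, itaconate against KO rests on 1 pair, the libraries labelled itaconate replicate 1 and KO replicate 3. The latter is in conflict with its label, and no pool holds both itaconate and WT. KO against WT was 0.50 without the library labelled WT replicate 3 and -0.59 without KO replicate 3. Without the 4 libraries in conflict with their labels it was -1.35 ± 0.42 (SE, edgeR adjusted p = 0.244), with WT replicate 3 as the 1 library left of its label and its spread taken from the other groups.

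**Figure D2:**
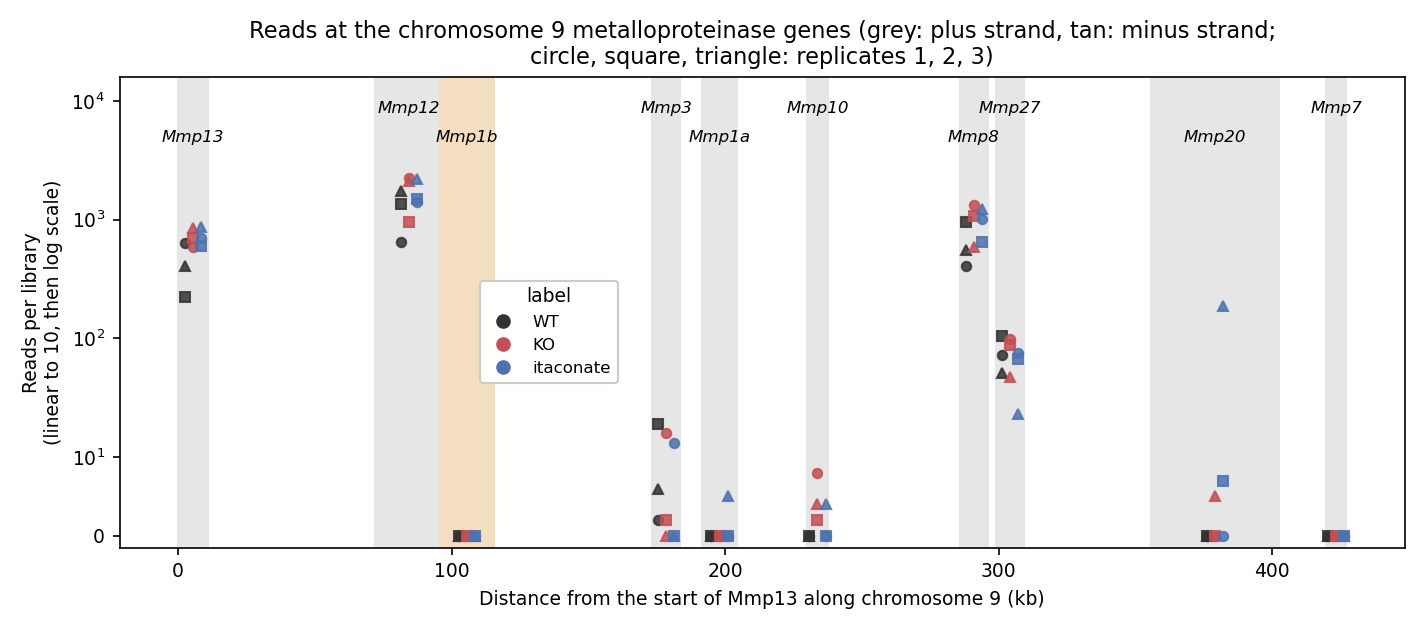
Reads per library at the 10 MMP genes of the chromosome 9 cluster, against distance from the start of Mmp13 in kb. Grey spans are genes on the plus strand and tan marks the minus strand, and the vertical axis is linear up to 10 reads and logarithmic above. Mmp13, Mmp12 and Mmp8 hold 222 to 2247 reads in every library, Mmp27 holds 23 to 105, the genes between Mmp12 and Mmp8 are at 0 to 19, and Mmp20 reaches 186 in 1 library.

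Within the cluster the read-bearing genes were interspersed with genes near 0. Mmp1b and Mmp7 (matrilysin) held 0 reads in all 9 libraries, Mmp1a at most 5, Mmp10 (stromelysin-2) at most 8 and Mmp3 (stromelysin-1) 0 to 19. Mmp27, which lies 2.9 kb after Mmp8, held 23 to 105 reads. Mmp20, the enamel protease enamelysin, held 186 reads in the library labelled itaconate replicate 3, 5 in KO replicate 3, 7 in itaconate replicate 2 and 0 in the other 6. The same library held 66 reads of Mmp16, a membrane-type MMP (0 to 13 elsewhere), and 10 of Timp4 (0 elsewhere).

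The 3 well-read neighbours did not keep a fixed proportion. Mmp12 reads per Mmp13 read were 1.02, 6.06 and 4.31 under the WT label, 3.85, 1.35 and 2.48 under the KO label, and 2.04, 2.52 and 2.50 under the itaconate label. This ratio does not depend on library scaling, and it varied 5.93-fold across the libraries. Mmp8 reads per Mmp13 read ran from 0.640 in the library labelled WT replicate 1 to 4.29 in WT replicate 2. Both ratios were closest together among the libraries labelled itaconate, at 2.36 ± 0.27 and 1.32 ± 0.196 (SD, n = 3), against 3.80 ± 2.56 and 2.10 ± 1.94 for WT. The difference in spread was not tested. Counts of reads near transcript ends do not rank the 3 genes against each other, so only changes of the ratios are read.

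Mmp9 encodes gelatinase B, which cuts denatured collagen and basement-membrane collagen. It was at 10.1, 19.9 and 23.9 CPM under the WT label, 11.0, 14.7 and 16.0 under the KO label and 19.4, 27.5 and 10.6 under the itaconate label. The lowest 3 values came from 3 different labels. The means were 18.0 ± 7.1, 13.9 ± 2.6 and 19.2 ± 8.5 CPM (SD, n = 3 each), and the log2 fold changes were -0.37 ± 0.39, 0.46 ± 0.38 and 0.09 ± 0.38 for KO against WT, itaconate against KO and itaconate against WT (SE, edgeR adjusted p = 0.995, 0.777 and 0.955). The second was 0.11 without the library labelled itaconate replicate 2 and 0.75 without itaconate replicate 3. The first was -0.66 without the library labelled WT replicate 1 and -0.12 without WT replicate 3. The first and second were -0.88 and 0.84 without the 4 libraries (edgeR adjusted p = 0.496 and 0.273).

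Mmp14 encodes the membrane-anchored collagenase MT1-MMP, which also activates the proenzyme of gelatinase A at the cell surface with the help of Timp2. It was at 877.8, 351.4 and 417.1 CPM under the WT label, 923.7, 855.7 and 443.0 under the KO label and 510.1, 847.3 and 341.0 under the itaconate label. The values fell into 4 libraries from 847.3 to 923.7 CPM and 5 from 341.0 to 510.1, and each label had libraries in both ranges. All 3 libraries with the most Acod1 reads were in the lower range, together with those labelled WT replicate 2 and itaconate replicate 1. The means were 548.8 ± 286.9, 740.8 ± 260.1 and 566.1 ± 257.7 CPM (SD, n = 3 each). The log2 fold change of KO against WT was 0.43 ± 0.41 (SE, edgeR adjusted p = 0.995), with 0.95 without the library labelled WT replicate 1, 0.20 without WT replicate 2 and 1.11 ± 0.44 without the 4 libraries (edgeR adjusted p = 0.358). Itaconate against KO was -0.39 ± 0.41 and itaconate against WT 0.04 ± 0.41 (SE, edgeR adjusted p = 0.830 and 0.982). The former was -0.80 without the library labelled itaconate replicate 2, -0.14 without itaconate replicate 3 and 0.20 in the pool-term fit. The latter was -0.37 without itaconate replicate 2 and 0.56 without WT replicate 1. The pool-term value rests on 1 pair, the libraries labelled itaconate replicate 1 and KO replicate 3. Gelatinase A itself, Mmp2, was near the detection limit at 0 to 30 reads. Mmp14 reads per Timp2 read were 5.11, 1.65 and 2.01 under the WT label, 4.53, 5.43 and 2.27 under the KO label and 2.94, 3.15 and 0.953 under the itaconate label, so the labels overlapped.

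Mmp19, a secreted protease that cuts basement-membrane proteins, differed from the other 8 genes in that a label was set apart. It was at 10.6, 14.3 and 12.3 CPM under the WT label, 19.0, 17.4 and 16.7 under the KO label and 14.9, 19.4 and 17.7 under the itaconate label. Every library labelled WT lay below every other library. The means were 12.4 ± 1.9, 17.7 ± 1.1 and 17.3 ± 2.3 CPM (SD, n = 3 each), with log2 fold changes of 0.51 ± 0.28 for KO against WT and 0.48 ± 0.28 for itaconate against WT (SE, edgeR adjusted p = 0.995 and 0.619). These 2 comparisons share the libraries labelled WT. Between KO and itaconate the log2 fold change was -0.03 ± 0.27. The values rest on 88 to 388 reads per library. Leaving out each library in turn gave 0.41 to 0.63 for KO against WT and 0.38 to 0.60 for itaconate against WT, and no fit called the gene. Without the 4 libraries they were 0.58 and 0.47 (edgeR adjusted p = 0.698 and 1).

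Among the inhibitors, Timp1 showed the largest difference between labels. Timp1 is a secreted inhibitor that binds the proenzyme of gelatinase B and is induced by many inflammatory signals. It was at 179.0, 108.3 and 170.4 CPM under the WT label, 69.2, 107.3 and 119.2 under the KO label and 227.1, 236.1 and 96.6 under the itaconate label. Replicates 1 and 2 of the itaconate label were the 2 highest of the 9 libraries, while replicate 3 lay within the range of KO. The means were 152.6 ± 38.6, 98.6 ± 26.1 and 186.6 ± 78.1 CPM (SD, n = 3 each). Itaconate against KO differed by 0.92 ± 0.36 (log2, SE). By edgeR the unadjusted p was 0.0223 and the adjusted p was 0.536, so the gene did not pass. KO against WT was -0.63 ± 0.36 and itaconate against WT 0.29 ± 0.36 (SE, edgeR adjusted p = 0.995 and 0.824). The adjusted p for itaconate against KO ranged from 0.0496 to 1 over the alternatives, and the log2 fold change was positive in all of them.

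That lowest value came from the fit without the 4 libraries in conflict with their labels, where Timp1 rose by 1.36 ± 0.36 on the log2 scale (SE, edgeR adjusted p = 0.0496). The fit compared replicates 1 and 2 of the KO and itaconate labels (69.2 and 107.3 against 227.1 and 236.1 CPM) and called 216 of 11342 genes, or 1.9%. Timp1 was the 1 call among the 9 genes. Under this exclusion WT kept 1 library, replicate 3, and 0 of 9 genes were called in KO against WT (0.0176% of all genes tested were called) and 0 of 9 in itaconate against WT (0.00882%). The exclusion left out the highest Timp1 value labelled KO (replicate 3, 119.2 CPM) and the lowest labelled itaconate (replicate 3, 96.6 CPM). In this fit both libraries labelled KO are from pool 1 and those labelled itaconate from pools 2 and 3. Pool and treatment therefore cannot be told apart. Within pool 2, the library labelled itaconate replicate 1 held 227.1 CPM and that labelled KO replicate 3, 1 of the 4 libraries in conflict, held 119.2 CPM. No other pool holds both labels, so this pair alone carries the fit with the pool as a term, in which the log2 fold change was 0.93 ± 0.48 (SE, edgeR adjusted p = 1). Leaving out only the library labelled itaconate replicate 3 gave 1.23 ± 0.31 (an adjusted p of 0.337 by edgeR). Mmp9 reads per Timp1 read, the pair that binds as proenzyme and inhibitor, were 0.0563, 0.184 and 0.140 under the WT label, 0.160, 0.137 and 0.134 under the KO label and 0.0853, 0.117 and 0.109 under the itaconate label. Every library labelled itaconate lay below every library labelled KO, and the WT libraries spanned both. Of single genes tested, 10.9% did not overlap in this comparison, and no such share was taken for ratios. Timp1 and Timp2 reads per Timp3 read also did not overlap between these labels, while the other ratios computed did. None of these differences in ratio was tested.

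Timp2 and Timp3 differed less. Timp2, which inhibits MMPs broadly and bridges Mmp14 to its gelatinase substrate, was at 171.9, 213.0 and 207.6 CPM under the WT label, 204.1, 157.6 and 195.3 under the KO label and 173.5, 269.2 and 357.8 under the itaconate label. The 2 highest values carried the itaconate label, but its lowest lay among the rest. Itaconate against KO was 0.52 ± 0.30 and itaconate against WT 0.43 ± 0.30 (SE, edgeR adjusted p = 0.652 and 0.672), and these were 0.24 and 0.17 without the library labelled itaconate replicate 3 and 0.26 and 0.08 without the 4 libraries. KO against WT was -0.09 ± 0.29. Timp3 stays bound to the matrix and also inhibits sheddases such as Adam17. It was at 41.0, 16.9 and 27.3 CPM under the WT label, 28.7, 27.0 and 27.8 under the KO label and 22.9, 32.2 and 19.6 under the itaconate label, with means of 28.4 ± 12.1, 27.8 ± 0.87 and 24.9 ± 6.6 CPM (SD, n = 3 each). The 3 libraries labelled KO were nearly equal and lay inside the range of WT. Its log2 fold changes were -0.03 ± 0.33, -0.16 ± 0.33 and -0.19 ± 0.33 (SE) for the 3 comparisons in the order above.

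**Figure D3:**
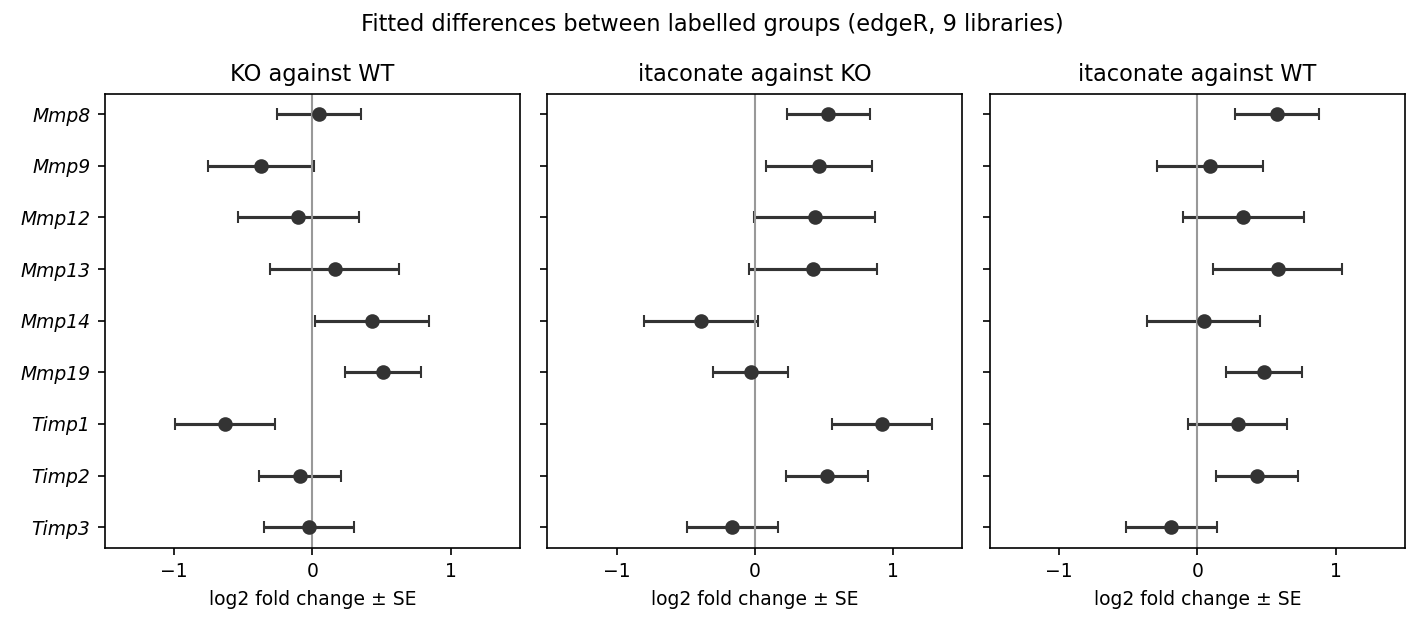
Log2 fold change ± SE of the 9 genes in each comparison of labelled groups, from the edgeR fit of all 9 libraries. The largest difference is Timp1 in itaconate against KO (0.92 ± 0.36), and none of the 27 values passed the threshold.

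As labelled, KO against WT was to show what loss of Irg1 changes. Itaconate against KO was to show what the added metabolite does in cells labelled as lacking the enzyme. Itaconate against WT was to show how far treated cells remain from wild type. Acod1 reads conflicted with 4 of the 9 labels, and Acod1 itself differed by 0.08 ± 2.35 (log2, SE) in KO against WT. The counts below therefore compare labels and are not a measure of Irg1 loss. Over the whole table, edgeR called 0 genes of 10781 (0%) in each comparison at an adjusted p under 0.05, and 0 of the 9 genes. At an unadjusted p under 0.05 the 3 comparisons gave 337, 895 and 957 genes (3.13%, 8.3% and 8.88%), in the order KO against WT, itaconate against KO, itaconate against WT. Among the MMP and TIMP genes these counts were 0, 1 (Timp1) and 0 of 9. DESeq2 called 1, 12 and 17 genes (0.00928%, 0.111% and 0.158%), none of them among the 9. The groups did not overlap for 1 of 9 genes in KO against WT (Mmp19) where 10.6% of all genes tested did not, for 0 of 9 in itaconate against KO (10.9%), and for 1 of 9 in itaconate against WT (Mmp19, 14.6%). These shares are near the background. The median log2 fold change of the 9 genes was -0.03, 0.43 and 0.33 in the 3 comparisons, beside -0.01, -0.02 and -0.01 over all genes tested. The medians of the 9 genes were -0.18, 0.26 and 0.16 without the 4 libraries. In itaconate against KO 6 of 9 were above 0 (Mmp14, Mmp19 and Timp3 were below), and in itaconate against WT 8 of 9, where 5219 and 5292 of the 10781 genes tested were above 0. With the pool as a term, Mmp12, Mmp13 and Timp2 were below 0 in both. In that fit itaconate against KO rests on 1 pair of libraries, and no pool holds both itaconate and WT. The 2 comparisons share the libraries labelled itaconate, and replicates 2 and 3 of that label each held the highest value of 3 of the 9 genes. Over all genes tested those 2 libraries were highest for 11.6% and 19.8%.

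**Figure D4:**
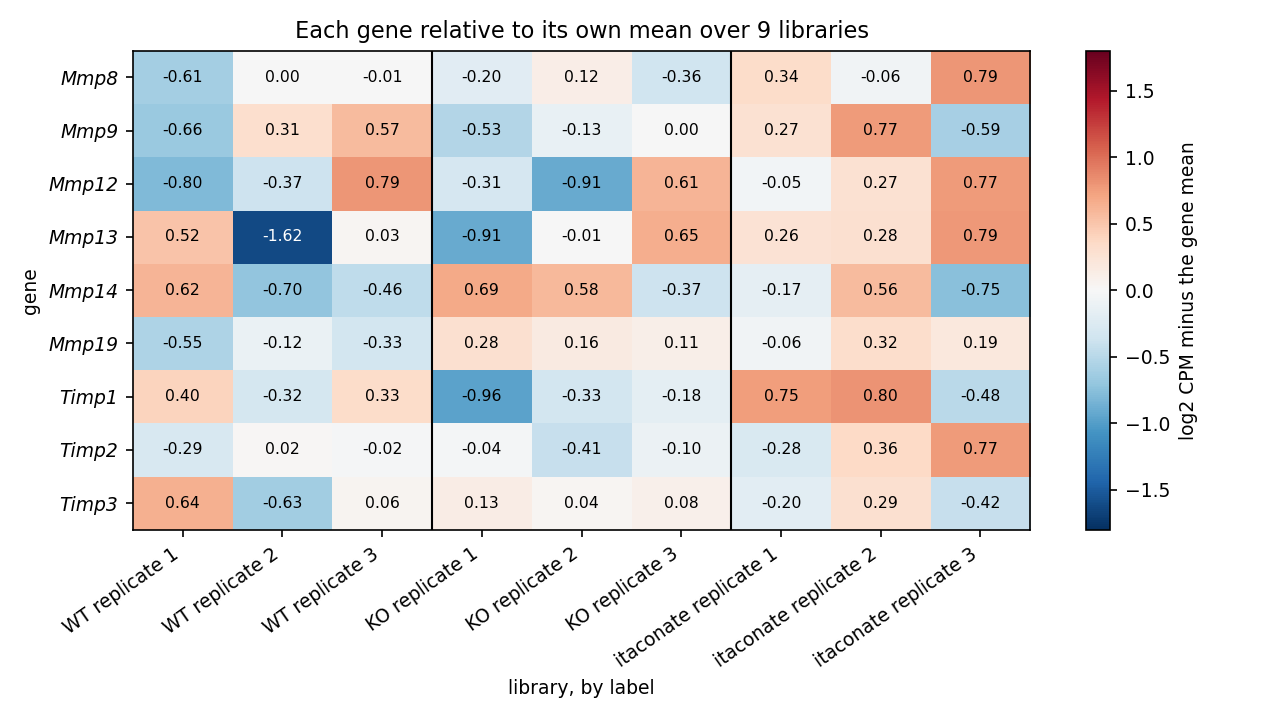
Log2 CPM of each gene minus its own mean over the 9 libraries, with the value printed in each cell; vertical lines separate the 3 labels. The lowest cell is Mmp13 in the library labelled WT replicate 2 (-1.62), and that labelled itaconate replicate 3 is highest for Mmp8, Mmp13 and Timp2 and lowest for Mmp14.

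The genes did not rise and fall as a unit. The library labelled itaconate replicate 2 was above the gene mean for 8 of the 9 genes, and that labelled WT replicate 2 for 2. The share of all genes above their mean in these libraries was not computed. The library labelled itaconate replicate 3 was highest for Mmp8, Mmp13 and Timp2 and lowest for Mmp14; over all genes tested it was highest for 19.8% and lowest for 26.7%. Likeness was measured as the root mean square difference between 2 mean-centred log2 CPM profiles over the 9 libraries. Between members it was smallest for Mmp8 and Timp2 (0.337), Mmp19 and Timp2 (0.341), Mmp8 and Mmp19 (0.370) and Mmp14 and Timp3 (0.374). Among 7287 other genes with a mean of at least 10 CPM, the nearest to Mmp12 were Acpp, an acid phosphatase, and Adgrg6, an adhesion receptor (0.196 and 0.217, where the median gene lay at 0.719). The nearest to Mmp14 were Rbbp6 and Eif4e3 (0.229 and 0.245), to Mmp13 Mxd1 and AA467197 (0.238 and 0.269), and to Timp1 Mrps11 and Ifi35 (0.212 and 0.229). For Mmp8 they were Ptbp2 and Ube2w (0.156 and 0.162), for Mmp9 Wdr83os and Kctd2 (0.140 and 0.185), for Mmp19 Efr3a and Tprkb (0.130 and 0.141), for Timp2 Dtd2 and Nab1 (0.0969 and 0.111) and for Timp3 Bap1 and 2810004N23Rik (0.160 and 0.167). Genes that vary little have small differences by construction.

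The other genes of pericellular proteolysis were read from lists chosen by function. Of the other 18 MMP and TIMP genes 3 passed the filter, Mmp2, Mmp25 (leukolysin, a membrane-type MMP of leukocytes) and Mmp27, and 0 of the 3 passed the test in any comparison. Mmp27 was at 8.63, 8.19 and 6.82 CPM under the WT label and 4.83, 6.57 and 4.62 under the KO label. These labels did not overlap, as for 10.6% of all genes tested (log2 fold change -0.56 ± 0.42, edgeR adjusted p = 0.995). Mmp17 held 0 to 4 reads. Reck, a membrane-anchored MMP inhibitor, held 0 to 8. No call was made among 12 ADAM and ADAMTS genes tested, with Adam17, the main sheddase of tumour necrosis factor, at 317.2 ± 24.3, 296.4 ± 18.6 and 358.9 ± 91.0 CPM under the WT label, KO and itaconate (SD, n = 3 each). Adam8 and Adam10 were likewise not called, at -0.09 ± 0.34 and 0.25 ± 0.40 for itaconate against KO (log2, SE).

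In the plasminogen activator system, which activates several proMMPs through plasmin, 8 of 9 genes tested were above 0 in itaconate against KO, with a median log2 fold change of 0.46, and 0 of 9 passed. Among all genes tested 5219 of 10781 were above 0, with a median of -0.02. Pool and label are partly confounded in this comparison. Serpinb2, an inhibitor of urokinase, was at 1.42, 5.29 and 7.57 CPM under the KO label and 15.96, 12.05 and 1.37 CPM under the itaconate label (log2 fold change 1.06 ± 0.70, SE). Its highest value labelled KO and its lowest labelled itaconate came from libraries in conflict with their labels. Plau, the urokinase, differed by 1.01 ± 0.60 and its receptor Plaur by 0.91 ± 0.50 (log2, SE). Without the 4 libraries Serpinb2 was the 1 call of 10 genes of this list, at 2.06 ± 0.51 (SE, edgeR adjusted p = 0.0390). That fit called 1.9% of all genes tested, and in it pool and treatment cannot be told apart. Among cathepsins and cystatins, lysosomal proteases and their inhibitors, 13 of 14 were below 0 in KO against WT (median -0.21) and in itaconate against WT (median -0.26), with 0 of 14 called. Over all genes tested 5509 and 5489 of 10781 were below 0. Both comparisons share the libraries labelled WT, where the macrophage marker sums given above were also highest, and the part of those markers was not tested. Ctsb, Ctsl and Ctss were at -0.18 ± 0.27, -0.23 ± 0.31 and 0.07 ± 0.25 in KO against WT. Ctsk, the collagen-degrading cathepsin K, was at 2.30 to 8.82 CPM across the libraries and differed by -1.04 ± 0.47 in itaconate against WT (edgeR adjusted p = 0.552).

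Of 11 tested activators, docking partners and receptors, 0 were called in the fit of all libraries. Cd44, a hyaluronan receptor that holds Mmp9 at the cell surface, was at 515.3, 545.5 and 823.7 CPM under the KO label and 895.3, 1352 and 1142 under the itaconate label. The labels did not overlap, but the log2 fold change of 0.85 ± 0.28 had an edgeR adjusted p of 0.507. Lcn2, which forms a complex with Mmp9, differed by -0.73 ± 0.33 (edgeR adjusted p = 0.595), with its lowest value, 171.8 CPM, in the library labelled itaconate replicate 3. Furin, the convertase that activates Mmp14, Bsg, an inducer of MMPs, Lrp1, which clears MMPs and TIMPs, and Cd63, a Timp1 partner, differed by 0.39 ± 0.31, 0.02 ± 0.28, -0.25 ± 0.28 and -0.14 ± 0.30 (log2, SE).

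Among 18 tested substrates and matrix genes none was called with all libraries. Thbs1, the matrix glycoprotein thrombospondin-1, was at 198.0, 268.4 and 545.8 CPM under the KO label and 813.6, 719.2 and 568.8 under the itaconate label. Its highest value labelled KO and its lowest labelled itaconate came from libraries in conflict with their labels. Thbs1 had a log2 fold change of 1.05 ± 0.35 (SE, edgeR adjusted p = 0.507). Without the 4 libraries it was the 1 call of this list, at 1.69 ± 0.35 (SE, edgeR adjusted p = 0.0171). As for Serpinb2, 1.9% of all genes tested were called there, and pool and treatment cannot be told apart. Fn1 (fibronectin) and Spp1 (osteopontin) differed by 0.50 ± 0.29 and 0.46 ± 0.41 in the fit of all libraries. Col1a1, a fibrillar collagen and a fibroblast marker, was at 58.9, 36.3 and 50.1 CPM under the WT label and 29.4, 26.4 and 20.0 under the itaconate label (-0.94 ± 0.28, edgeR adjusted p = 0.515). Fibroblasts are another source of Mmp13, Mmp14 and TIMPs. The sum of 9 fibroblast and stromal markers was 212 to 287, 207 to 236 and 177 to 266 CPM for WT, KO and itaconate, led by Col1a2 (997 to 2869 reads), with Col1a1 at 189 to 839 reads, Postn at 9 to 224 and Lum at 0 to 9. Of these 9 markers 5 had at least 10 reads in every library. For 7 osteoclast markers the sum was 83.7 to 112, 54.5 to 86.0 and 47.0 to 85.6 CPM. Acp5, Atp6v0d2 and Ctsk carried it, at 99 to 812, 193 to 398 and 21 to 70 reads, and Calcr held 0 to 7 reads. The part of these markers in the MMP and TIMP values was not tested.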

How the data were processed

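The 9 libraries, 3 per label, were made from poly(A) RNA with barcoded oligo-dT primers, pooled, and amplified by PCR, per the labels' protocols. Reads of such libraries lie mostly near transcript ends and carry no molecular identifier, so copies count separately. SEs and SDs cover the spread between libraries. The authors deposited unnormalized whole-number read counts for each gene. Per the submitters' processing notes the tools were STAR and HTSeq and the build mm10; tool versions, annotation release and filters are not given in the sources used here. Library sizes and tests leave out the counter's 5 summary lines: unassigned reads outside genes (23.1% to 33.7%), multiply aligned reads (17.1% to 20.0%) and ambiguous reads (0.275% to 0.441%). Symbols were matched for 21745 of 22165 identifiers, ignoring version suffixes. Positions are from GENCODE M21 (GRCm38).

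Counts were tested with the two-sided quasi-likelihood F test of edgeR 4.0.16 (R 4.3.3) in 1 fit of all 9 libraries with group as the only term, TMM scaling, the edgeR expression filter at a minimum count of 10, and Benjamini-Hochberg adjustment over 10781 genes at a threshold of 0.05. A fold change's SE is its size divided by the square root of F. CPM are TMM-scaled; marker sums use unscaled gene reads. On simulated counts with 200 changed genes, KO against WT (10599 genes) recovered 75 of 100 at a 4-fold change and 2 of 100 at a 2-fold change, with 4 false calls. For itaconate against KO (10621 genes) these were 72, 16 and 3, and for itaconate against WT (10626 genes) 77, 7 and 8. The simulation changed every library of a label alike, with no pool effect and no label in conflict. The recovered shares therefore do not carry over to an effect of genotype under the present labels. Named genes were the 9, a panel of 29 related genes chosen by role (1 of them is not reported here), called genes of the lists and the 2 nearest profiles per member. Mmp16, Mmp20, Col1a2 and cell type markers singled out in the text were chosen after their values were seen. The members and lists were chosen with earlier results of these data known. Alternatives were other scalings, no filter, DESeq2 1.42.0, a replicate block, a pool term, only the 2 groups compared, pool 1 alone, the fit without 4 libraries and each library left out.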

Additional observations from a re-analysis of the deposited data

How the results depend on the processing

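Over 243 fold changes of the 9 genes with 1 library left out, 17 changed sign and 0 were called; over 225 under the other alternatives, 17 changed sign and 1 was called. Leaving out each library gave -0.13 to 0.17 for Mmp8, -0.59 to 0.50 for Mmp12, -0.25 to 0.63 for Mmp13, -0.18 to 0.0143 for Timp2 and -0.29 to 0.34 for Timp3 in KO against WT. It gave -0.12 to 0.0665 for Mmp19 in itaconate against KO, and -0.26 to 0.39 for Mmp9, -0.37 to 0.56 for Mmp14 and -0.46 to 0.17 for Timp3 in itaconate against WT. With the pool as a term, Mmp13 was -0.27 in KO against WT; Mmp12, Mmp13, Mmp14 and Timp2 were -0.67, -0.39, 0.20 and -0.17 in itaconate against KO; and Mmp9, Mmp12, Mmp13 and Timp2 were -0.21, -1.28, -0.66 and -0.30 in itaconate against WT, where no pool holds both labels. The pool-term values of itaconate against KO rest on 1 pair, the libraries labelled itaconate replicate 1 and KO replicate 3. Within pool 1 Mmp13 was -0.25 in KO against WT. Without the 4 libraries, Mmp13 was -0.40 and Timp3 0.0513 in KO against WT, and Mmp9, Mmp12 and Timp3 were -0.0405, -0.68 and 0.00409 in itaconate against WT. Without scaling factors Mmp14 was -0.0421 in itaconate against WT. The cause was not tested.

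The count of genes called, 0 in each comparison, became 1, 12 and 17 with DESeq2 (KO against WT, itaconate against KO, itaconate against WT), 2, 216 and 1 without the 4 libraries, and 80 and 92 without a filter in the latter 2 comparisons. Leaving out 1 library gave 0 to 6 genes in itaconate against KO and 0 to 4 in itaconate against WT, the highest without the library labelled itaconate replicate 1. The count of called members was 1 without the 4 libraries in itaconate against KO (Timp1). Replicate numbers did not pair the samples throughout. Deviations of same-numbered libraries correlated at 0.0293 to 0.245, -0.159 to 0.168 and -0.079 to -0.0179. Of 6 libraries 3, 2 and 0 correlated best with their own number. The highest of these correlations, 0.245, was between replicates 3 of KO and WT. Replicate 3 of each label also held the most Acod1 reads of its label. The remaining pairs of replicates 3 correlated at 0.0187 (itaconate and KO) and -0.079 (itaconate and WT). A link between Acod1 reads and these correlations was not tested. The fit with the replicate block called 0 genes in each comparison, with Timp3 at 0.00694 in KO against WT. Without scaling factors the median of all genes in itaconate against WT was -0.11. The SE of log2 fold changes had a median of 0.353 to 0.355, so a 2-fold change was mostly below what 3 libraries per label could call.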
